A study of Mus musculus with 6 samples.

Results

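Gad1, Kcnab3, Adamtsl2, Arl4d, Apela and Aldh1b1 are 6 of the 19342 gene names in a table of read counts from mouse tailbud mesoderm progenitor cells. They were picked by name as genes that were expressed at 0 h of culture and much lower at 96 h, so their fall between those libraries is how they were found and is given as a description. RNA of C57BL/6 cells came as 6 libraries, a single one for each condition. The untreated conditions were 0 h and 96 h in culture. The other libraries were taken as having growth factors added after 96 h. These were rhBMP4 for 5 h, rhBMP4 for 11 h, rhBMP4 and rhFGF8 for 5 h, and rhBMP4 and rhFGF4 for 11 h. The titles give the hours with growth factor, and 101 h or 107 h in culture are those hours added to 96 h. All cells shared serum-containing medium and a feeder layer of mitomycin C-treated mouse embryonic fibroblasts from C57Bl/6 mice, so feeder RNA can be part of a library. Neither the 5 h nor the 11 h libraries have an untreated partner cultured as long, and FGF8 was given at 5 h but FGF4 at 11 h, so those ligands cannot be told apart from the time of exposure.

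The tailbud is the growing posterior end of the vertebrate embryo. Its progenitors express T (Brachyury) and supply the presomitic mesoderm, where Tbx6 and Msgn1 act and where Notch genes such as Hes7 oscillate before somites form. WNT and FGF signals are known to keep the progenitors in place, and BMP signals pattern the mesoderm that leaves them. The 6 genes have other roles. Gad1 encodes glutamate decarboxylase, which makes the neurotransmitter GABA from glutamate, and Aldh1b1 a mitochondrial enzyme that oxidises acetaldehyde and related aldehydes. Kcnab3 encodes a cytoplasmic beta subunit of Shaker-type potassium channels. Adamtsl2 encodes a secreted glycoprotein without protease activity that binds fibrillin microfibrils. Apela encodes a secreted peptide (also called Elabela or Toddler), a ligand of the apelin receptor known from zebrafish to guide mesendoderm movement. Arl4d encodes a small GTPase of the ARF-like family that recruits cytohesins to the plasma membrane.

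All 6 genes are protein coding. In the GENCODE annotation of GRCm38 (mm10), Gad1 lies at chr2:70553072-70602014 and Adamtsl2 at chr2:27079379-27108981, both on the plus strand. Kcnab3 lies at chr11:69326258-69333042 and Arl4d at chr11:101665541-101667832, also on the plus strand. Aldh1b1 lies at chr4:45799022-45804604 (plus strand) and Apela at chr8:65028417-65037336 (minus strand). Promoter windows of 250 bases before the gene's start were available from RefSeq (GRCm38.p6) for 5 of the 6 genes, all but Kcnab3. They were searched on both strands for 6 short motifs of factors known in the tailbud or of the added signals: AGGTGT (T-box), TTTATG (CDX), CTTTGA (TCF/LEF), GTGGGAA (RBPJ), GGCGCC (SMAD1/5) and CCGGAAG (ETS). No motif contains or overlaps another in the windows below. The 3 windows that held a match are shown for that reason alone, with the matched bases in capitals and all sequences 5′ to 3′ on the gene's strand.
Gad1 (chr2:70561879-70562041, plus strand, T-box match on the opposite strand): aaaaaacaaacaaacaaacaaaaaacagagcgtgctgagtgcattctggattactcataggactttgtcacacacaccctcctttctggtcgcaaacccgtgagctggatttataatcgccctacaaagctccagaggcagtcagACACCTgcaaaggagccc
Adamtsl2 (chr2:27079129-27079378, plus strand, RBPJ match on the same strand): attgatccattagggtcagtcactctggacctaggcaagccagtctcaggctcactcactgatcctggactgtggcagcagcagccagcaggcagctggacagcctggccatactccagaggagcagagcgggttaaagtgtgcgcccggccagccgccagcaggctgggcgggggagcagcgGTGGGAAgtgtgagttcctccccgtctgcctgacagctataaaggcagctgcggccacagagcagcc
Aldh1b1 (chr4:45798772-45799021, plus strand, TCF/LEF match on the opposite strand): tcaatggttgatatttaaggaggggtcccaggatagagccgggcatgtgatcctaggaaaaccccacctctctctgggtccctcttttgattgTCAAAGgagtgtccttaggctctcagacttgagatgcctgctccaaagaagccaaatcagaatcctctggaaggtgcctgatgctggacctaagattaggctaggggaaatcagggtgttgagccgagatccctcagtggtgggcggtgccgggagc
The Gad1 window is cut to its first 163 bases because the other 87 are exon in GENCODE. The RefSeq start used for Gad1 lies downstream of the GENCODE start, chr2:70553072. Its window is therefore inside the GENCODE gene, and also inside the antisense gene Gad1os (chr2:70489940-70563357). The T-box match of Gad1 starts 105 bases before the RefSeq start, the RBPJ match of Adamtsl2 67 bases before and the TCF/LEF match of Aldh1b1 157 bases before. Of 32536 mouse promoter windows, 11.9% held the T-box motif, 5.43% the RBPJ motif and 13.9% the TCF/LEF motif, so matches of this kind are common. The CDX, SMAD1/5 and ETS motifs, held by 10.8%, 9.65% and 6.95% of windows, matched in none of the 5. No motif was shared by 2 of the genes. A match describes letters only and says nothing about binding.

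Total counts were 179196459 to 272743104 per library, and 3 counts corresponded to 0.0112 to 0.0181 CPM (counts scaled to a common library size by TMM). The growth factor columns hold 73 to 484 more values than there are names and had to be matched to the names by their order. The rows of all 6 genes were placed securely, with the lowest probability, 0.987, for Gad1 at BMP4 11 h. Of the fixed tailbud and presomitic markers, 8 of 10 were placed, and their summed level was 309.8 CPM at 0 h, 15.9 at 96 h, 276 with BMP4 5 h, 272 with BMP4 and FGF8, 135 with BMP4 11 h and 30.7 with BMP4 and FGF4. The 8 red blood cell markers placed of 9 summed to 15.6, 3122, 21.0, 109.8, 2964 and 2009 CPM in the same order. Endothelial markers (8 of 8) summed to 9.22, 95.7, 9.05, 9.43, 43.3 and 136 CPM, and fibroblast markers (9 of 9), which the feeder cells would carry, to 689, 1132, 726, 679, 926 and 1785.5 CPM. At 0 h most of the fibroblast sum was Fn1, at 530.0 CPM (308.0 at 96 h), and without it the sum was 159.3 CPM at 0 h, 824.4 at 96 h, 226.2 and 204.3 in the 5 h libraries, 487.9 with BMP4 11 h and 1203 with BMP4 and FGF4. Both 5 h libraries lay nearer to 0 h than to 96 h in these sums, though red blood cell markers with BMP4 and FGF8 and fibroblast markers such as Postn (2.63 CPM at 0 h, 20.3 with BMP4 5 h) were above 0 h. Whether the cells of the 5 h libraries had first been cultured for 96 h was not tested. The fibroblast sum without Fn1 was not one of the fixed lists. Within it, Thy1 did not rise at 96 h (0.667 CPM at 0 h, 0.426 at 96 h, 3.41 with BMP4 5 h). Pdgfra changed little (85.0 CPM at 0 h, 93.6 at 96 h). Neural (9 of 9), notochord (5 of 5) and endoderm and epithelium (6 of 7) markers summed to 94.3 to 111, 11.6 to 16.4 and 63.4 to 90.2 CPM, and macrophage markers (2 of 5) to 0.156 to 1.28 CPM. Within these sums single genes moved in opposite directions. The epithelial gene Epcam was at 9.71 CPM at 0 h, 4.38 at 96 h, 8.08 with BMP4 5 h, 9.91 with BMP4 and FGF8, 5.29 with BMP4 11 h and 4.02 with BMP4 and FGF4, and Cdh1 and Cldn6 were also 2-fold lower at 96 h than at 0 h (log2 ratios -1.001 and -1.053). Krt18 (1.24), Olig2 (1.90) and Noto (2.04) were higher. No placed marker was at 0 counts. What part the other cell types have in the levels below was not tested. In bulk RNA, fewer cells of a type and less RNA per cell cannot be told apart.

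Gad1 was high at 0 h and in 3 of the 4 growth factor libraries, and almost gone at 96 h. Its level was 13.9 CPM at 0 h, 0.273 at 96 h, 13.7 with BMP4 5 h, 12.4 with BMP4 and FGF8 5 h, 9.28 with BMP4 11 h and 1.05 with BMP4 and FGF4 11 h. The BMP4 11 h level depended on how rows were placed. With placement on the 96 h column alone it was 0.497 CPM, from a row of 82 counts. The 0 h and BMP4 5 h libraries had overlapping 95% counting intervals, 13.4 to 14.4 and 13.2 to 14.2 CPM, and every other step in the order was wider than the intervals. The 96 h level rested on 73 counts and the 0 h level on 3003. The plain ratio between them was 51.0-fold (40.5 to 65.3 by the counting interval), and 4 of 13959 genes had a lower log2 ratio. Gad1 overlaps the antisense gene Gad1os (chr2:70489940-70563357, minus strand) without shared exon bases. Gad1os was at 4.34, 1.13, 3.67, 3.30, 2.87 and 1.31 CPM in the order given for Gad1, with a log2 ratio of -1.57 for 96 h over 0 h.

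Aldh1b1, the other enzyme gene, behaved differently with BMP4 11 h. Its level was 7.71 CPM at 0 h, 2.02 at 96 h, 7.41 with BMP4 5 h, 7.68 with BMP4 and FGF8 5 h, 2.43 with BMP4 11 h and 1.53 with BMP4 and FGF4 11 h. The 0 h library and both 5 h libraries had overlapping counting intervals, and the other 3 libraries were all low. The BMP4 11 h level was 1.20 times that at 96 h (1.05 to 1.37), and the BMP4 and FGF4 level was 0.758 times it (0.659 to 0.872), the lowest of the 6 libraries.

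Kcnab3, the potassium channel beta subunit gene, was at 12.0 CPM at 0 h, 0.530 at 96 h, 9.43 with BMP4 5 h, 10.8 with BMP4 and FGF8 5 h, 3.53 with BMP4 11 h and 0.587 with BMP4 and FGF4 11 h. The lowest levels, 96 h and BMP4 with FGF4, rested on 142 and 124 counts and their intervals overlapped (ratio 1.11, 0.863 to 1.42). All other libraries were separated by more than their intervals. The antisense gene Kcnab3os shares 147 exon bases with Kcnab3 and is not among the names of the table. Whether counting used strand is not given in the sources used here, so reads in those bases cannot be assigned to either gene.

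Of the secreted products, Adamtsl2 followed Gad1 closely and Apela changed least. Adamtsl2 was at 19.7 CPM at 0 h, 0.941 at 96 h, 19.2 with BMP4 5 h, 17.4 with BMP4 and FGF8 5 h, 10.5 with BMP4 11 h and 2.20 with BMP4 and FGF4 11 h. Only its 0 h and BMP4 5 h intervals overlapped, and the 0 h to 96 h ratio was 20.9-fold (18.4 to 23.9).

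Apela was at 11.5 CPM at 0 h, 4.33 at 96 h, 9.89 with BMP4 5 h, 10.8 with BMP4 and FGF8 5 h, 6.53 with BMP4 11 h and 4.24 with BMP4 and FGF4 11 h. Its 96 h level was 2.67-fold below 0 h (2.48 to 2.86), the smallest drop among the 6 genes. Its order ran from 0 h over BMP4 with FGF8, BMP4 5 h and BMP4 11 h to 96 h and BMP4 with FGF4. The intervals overlapped between the first and second, and between the last pair (ratio 0.981, 0.898 to 1.07). Gm45886, on the same strand, shares 297 exon bases with Apela and is not among the names of the table, so some reads in that overlap could belong to either.

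Arl4d, the small GTPase gene, was at 29.0 CPM at 0 h, 4.79 at 96 h, 27.1 with BMP4 5 h, 25.7 with BMP4 and FGF8 5 h, 10.8 with BMP4 11 h and 5.46 with BMP4 and FGF4 11 h. Only the level intervals of the 5 h libraries touched, and the 96 h level was 6.04-fold below 0 h (5.69 to 6.42). Divided by exon length, Arl4d was the most abundant of the 6 genes at 0 h, at 21.0 CPM per kilobase, followed by Apela at 11.5, Kcnab3 at 4.19, Aldh1b1 at 3.36, Adamtsl2 at 2.46 and Gad1 at 1.82. At 96 h the order on this scale was Apela (4.31), Arl4d (3.47), Aldh1b1 (0.881), Kcnab3 (0.185), Adamtsl2 (0.118) and Gad1 (0.0357).

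**Figure D1:**
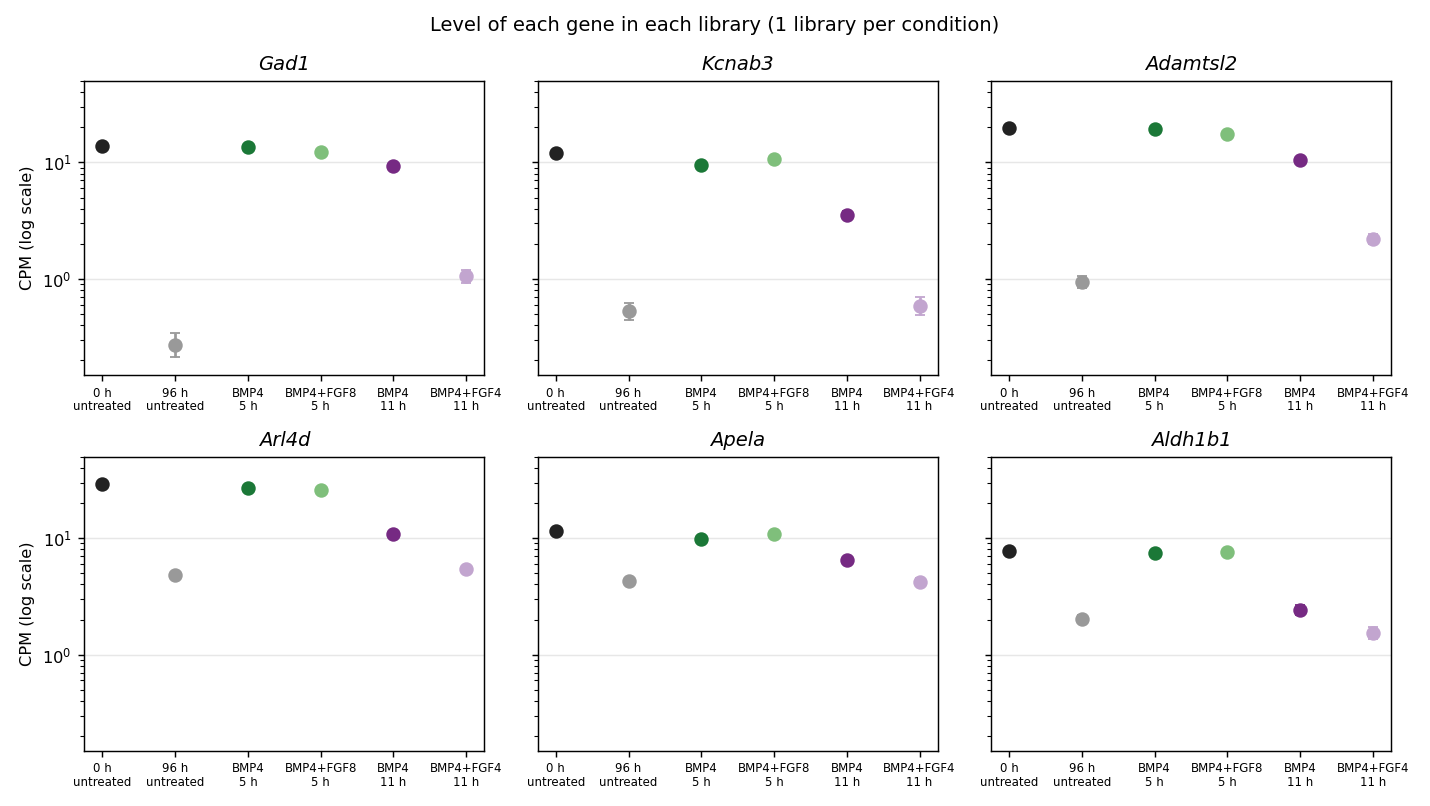
Level of each gene (CPM, log scale on the vertical axis) in each of the 6 libraries, 1 panel per gene; points are single libraries and bars are exact 95% Poisson counting intervals. In every panel the 0 h and both 5 h points are high and the 96 h and BMP4 with FGF4 11 h points low, and the BMP4 11 h point lies near the high group for Gad1 (9.28 CPM) but near the low group for Aldh1b1 (2.43 CPM). The Gad1 point at BMP4 11 h depends on how rows were placed.

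A gene was called higher or lower where its log2 ratio, taken after adding 0.5 CPM to both libraries, was at least 2-fold. As each condition is a single library, no ratio has a replicate check or a p-value, and intervals cover counting error only. Between 96 h and 0 h all 6 genes were called lower, as their choice required, against 2.39% of the 13959 genes tested. Their log2 ratios were -4.22 (Gad1), -3.81 (Adamtsl2), -3.60 (Kcnab3), -2.48 (Arl4d), -1.70 (Aldh1b1) and -1.32 (Apela).

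All 6 genes were at least 2-fold higher in both 5 h libraries than at 96 h. With BMP4 5 h over 96 h the log2 ratios were 4.20 for Gad1, 3.77 for Adamtsl2, 3.27 for Kcnab3, 2.38 for Arl4d, 1.65 for Aldh1b1 and 1.11 for Apela, and 2.31% of all genes tested were called higher and 3.29% lower. Of all 13959 genes, 13954 had a lower ratio than Gad1 in that comparison. With BMP4 and FGF8 5 h over 96 h the log2 ratios were 4.06, 3.63, 3.46, 2.31, 1.70 and 1.23 for the same genes in the same order, against 2.46% of all genes called higher and 3.15% lower. These comparisons share the 96 h library with each other and with the choice of the genes, so low 96 h values enter each of them. Of 20 tailbud and presomitic factors placed and tested from a list of 26, 20 were called higher in each 5 h library over 96 h, with median log2 ratios of 2.997 and 3.086.

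The 11 h libraries split the genes. With BMP4 11 h over 96 h, 4 of the 6 were called higher, Gad1 at 3.66, Adamtsl2 at 2.93, Kcnab3 at 1.97 and Arl4d at 1.09, where 2.38% of all genes were higher and 0.287% lower. Apela at 0.54 and Aldh1b1 at 0.21 were not called. With 2 CPM added in place of 0.5, Arl4d here and Apela in BMP4 5 h over 96 h were both at 0.91 and no longer called. With rows placed on the 96 h column alone, Gad1 at BMP4 11 h took a row of 82 counts at a probability of 0.678, and its ratio over 96 h was 0.37. With BMP4 and FGF4 11 h over 96 h, 1 of the 6 was called, where 1.27% of all genes were higher and 0.107% lower. That gene was Gad1, at a log2 ratio of 1.01 just past the threshold (plain ratio 3.86, 2.95 to 5.10), and at 0.43 with 2 CPM added. Adamtsl2 was at 0.91, Arl4d at 0.17, Kcnab3 at 0.08, Apela at -0.03 and Aldh1b1 at -0.31. The tailbud and presomitic factors were called higher in 18 of 20 cases with BMP4 11 h (median 2.10) and in 4 of 20 with BMP4 and FGF4 (median 0.52).

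To set the genes on 1 scale, each growth factor library was placed between the 96 h level (0%) and the 0 h level (100%) of the same gene. With BMP4 5 h, Gad1 stood at 98.3%, Adamtsl2 at 97.4%, Aldh1b1 at 94.6%, Arl4d at 92.2%, Kcnab3 at 77.7% and Apela at 77.1%. With BMP4 and FGF8 5 h the 6 genes lay closer together, from 86.6% (Arl4d) to 99.4% (Aldh1b1). With BMP4 11 h they spread from 66.1% for Gad1 and 50.8% for Adamtsl2, over 30.6% for Apela, 26.2% for Kcnab3 and 24.8% for Arl4d, down to 7.06% for Aldh1b1. The row that placement on the 96 h column alone gave Gad1 here would put it at 1.64%. The gene with the highest position at BMP4 with FGF8 thus had the lowest at BMP4 11 h. With BMP4 and FGF4 11 h all 6 lay near 0% on this scale, between -8.60% (Aldh1b1) and 6.72% (Adamtsl2). As plain ratios, Gad1 was at 3.86 times and Adamtsl2 at 2.34 times its 96 h level there.

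The 19 tailbud and presomitic factors that were at least 2-fold lower at 96 h gave the frame for these positions. Their range was 61.8% to 105% with BMP4 5 h (median 87.1%), 62.6% to 104% with BMP4 and FGF8, 20.3% to 73.1% with BMP4 11 h (median 39.7%) and -7.22% to 15.5% with BMP4 and FGF4 (median 4.30%). The 6 genes had medians of 93.4%, 89.2%, 28.4% and 1.62% in those libraries. Aldh1b1 lay below the lowest of these 19 in both 11 h libraries, below Nkx1-2 with BMP4 and below Hoxd13 with BMP4 and FGF4. The other 5 genes lay within the range of the 19 in all 4 libraries. Lfng was tested but left out of the 19 because its log2 ratio of -0.996 was just short of 2-fold. It stood at 21.5% with BMP4 11 h and at -17.9% with BMP4 and FGF4, there below Aldh1b1. Gad1 and Adamtsl2 with BMP4 11 h lay above all 19 factors but Dll1.

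**Figure D2:**
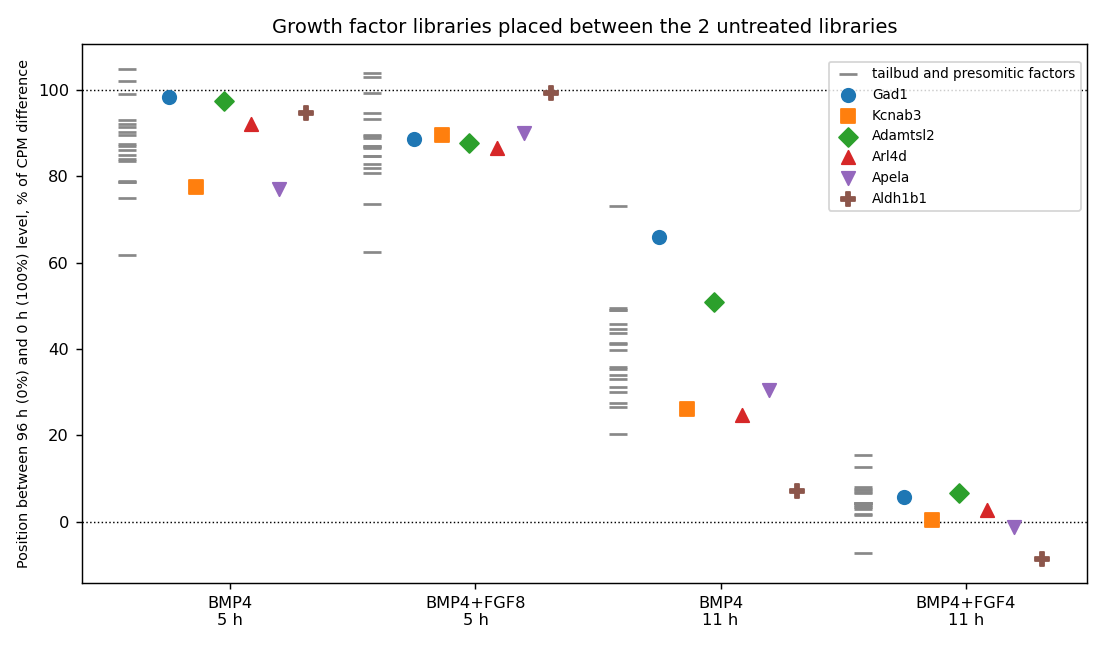
Position of each growth factor library between the 96 h level (0%) and the 0 h level (100%) of the same gene, in percent of the CPM difference; coloured symbols are the 6 genes and grey dashes the 19 tailbud and presomitic factors, with 1 library per condition. At BMP4 11 h the 6 genes spread from 7.06% (Aldh1b1) to 66.1% (Gad1), while at 5 h they all lie at or above 77.1%. The Gad1 position at BMP4 11 h depends on how rows were placed.

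All 6 were also lower at 11 h than at 5 h. These libraries were not used to choose the genes, but their rows were placed on the 0 h and 96 h columns. The tailbud marker sum was near 0 h (309.8 CPM) in the 5 h libraries (276 and 272) and lower in the 11 h libraries (135 and 30.7). A fall of genes chosen as high at 0 h and low at 96 h is therefore no independent result. With BMP4 alone, 3 of the 6 were called lower, where 0.344% of all genes were lower and 2.54% higher. These were Aldh1b1 at a log2 ratio of -1.43 (plain ratio 0.327, 0.293 to 0.366), Kcnab3 at -1.30 and Arl4d at -1.29. Adamtsl2 at -0.85, Apela at -0.56 and Gad1 at -0.54 (plain ratio 0.678, 0.637 to 0.722) were below 1 beyond counting error but short of 2-fold. With rows placed on the 96 h column alone the Gad1 ratio was -3.84, and 4 of the 6 were then called. For Aldh1b1, 8 of 13959 genes had a lower ratio. Between BMP4 with FGF4 11 h and BMP4 with FGF8 5 h all 6 were called lower, against 1.83% of all genes lower and 4.57% higher. The log2 ratios were -3.38 (Kcnab3), -3.05 (Gad1), -2.73 (Adamtsl2), -2.14 (Arl4d), -2.01 (Aldh1b1) and -1.26 (Apela), and both the time and the FGF ligand differ there. Over the same steps the 20 tailbud and presomitic factors had 6 called lower with BMP4 alone (median -0.87) and 20 called lower with FGF (median -2.67). The red blood cell markers moved the opposite way, from 21.0 to 2964 CPM and from 109.8 to 2009 CPM.

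FGF8 added to BMP4 for 5 h left all 6 genes within 1.15-fold of BMP4 alone. Gad1 (plain ratio 0.904, 0.858 to 0.953) and Adamtsl2 (0.905, 0.866 to 0.945) were slightly lower. Kcnab3 (1.15, 1.08 to 1.22) and Apela (1.09, 1.03 to 1.16) were slightly higher. Arl4d had a log2 ratio of -0.07 (plain ratio between 0.916 and 0.985 by the interval), and the interval of Aldh1b1 held 1 (1.04, 0.968 to 1.11). None of the 6 was called, where 0.201% of all genes were called higher and 0.0358% lower, and none of the 20 tailbud and presomitic factors was.

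FGF4 added to BMP4 for 11 h went with lower levels of all 6 genes than BMP4 alone, and 3 were called lower, where 0.638% of all genes were. Gad1 was at 1.05 against 9.28 CPM (log2 ratio -2.66, plain ratio 0.113, 0.0980 to 0.131), and 3 of 13959 genes had a lower log2 ratio. With the row that placement on the 96 h column alone gave Gad1 at BMP4 11 h, this ratio was 0.65. Adamtsl2 was at 2.20 against 10.5 CPM (-2.02, plain ratio 0.210, 0.189 to 0.233) and Kcnab3 at 0.587 against 3.53 CPM (-1.89, plain ratio 0.166, 0.136 to 0.202). Arl4d came next at -0.92 (plain ratio 0.506, 0.469 to 0.545), while Apela at -0.57 (0.650, 0.594 to 0.710) and Aldh1b1 at -0.52 (0.633, 0.545 to 0.734) differed least. The genes that stood highest with BMP4 11 h, Gad1 and Adamtsl2, were those with the lowest log2 ratios here. The BMP4 11 h level enters both values, so this order is no separate result. Of the 20 tailbud and presomitic factors 15 were called lower (median -1.45). Endothelial marker sums were 43.3 CPM with BMP4 11 h and 136 CPM with BMP4 and FGF4, and fibroblast sums without Fn1 487.9 and 1203 CPM. Their part in these ratios was not tested.

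**Figure D3:**
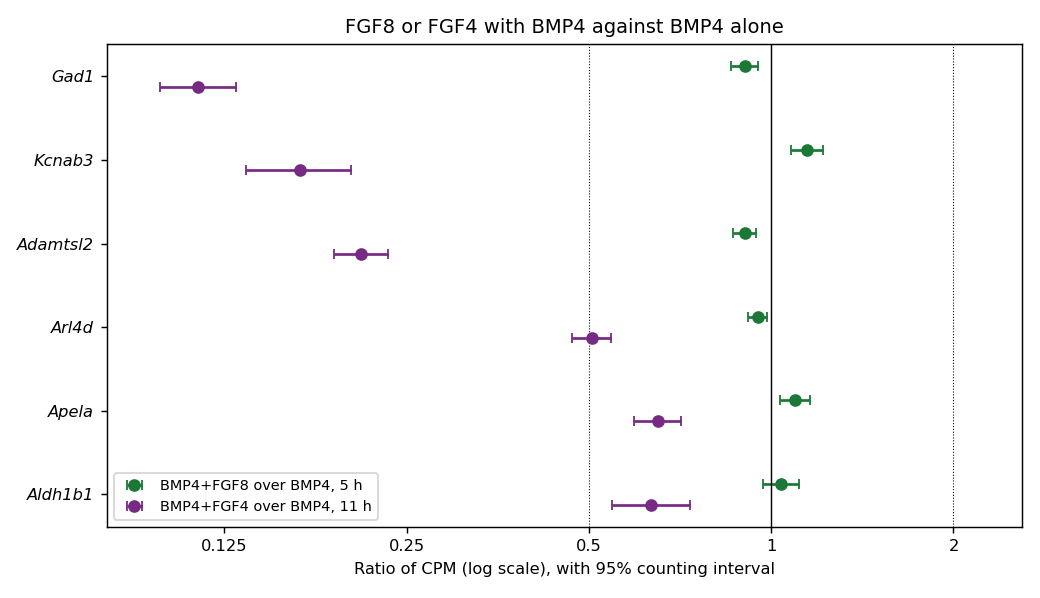
Plain ratio of CPM (log scale) between the library with FGF and the library with BMP4 alone, for FGF8 at 5 h (green) and FGF4 at 11 h (purple); points are single-library ratios, bars exact 95% counting intervals and dotted lines 2-fold. The FGF8 points lie close to 1 for all 6 genes and the FGF4 points range from 0.113 (Gad1) to 0.650 (Apela). The FGF4 point of Gad1 depends on how rows were placed at BMP4 11 h.

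The other genes of each family or pathway were mostly at like levels at 0 h and 96 h, as were most genes. Of all 13959 genes tested, 3.85% were called higher and 2.39% lower at 96 h, so few calls are likely in any of the short lists below. The 6 genes were chosen for their fall, so their contrast with these lists is a description only. In a list of 23 genes of GABA synthesis, breakdown, transport and receptors, 11 genes besides Gad1 were placed and tested, and 1 of them was called lower at 96 h (median log2 ratio -0.05). That gene was the receptor subunit gene Gabrb2, at 2.98 CPM at 0 h, 0.769 at 96 h, 2.80 with BMP4 5 h, 2.50 with BMP4 and FGF8, 1.65 with BMP4 11 h and 0.720 with BMP4 and FGF4, the same order of high and low libraries as Gad1 except for the last pair. Gad2, the second glutamate decarboxylase gene, was between 0.0226 and 0.0568 CPM in all 6 libraries, far below the 13.9 CPM of Gad1 at 0 h. The GABA-degrading transaminase gene Abat was at 9.01 and 10.1 CPM at 0 h and 96 h, and Aldh5a1, which acts after it, at 12.4 and 12.8 CPM. The vesicular GABA transporter gene Slc32a1 was not securely placed.

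Of the Shaker-type channel genes, 6 besides Kcnab3 were tested and none was called at 96 h over 0 h (median -0.09). The other beta subunit genes were below Kcnab3 at 0 h but above it at 96 h, Kcnab1 at 2.77 and 4.05 CPM and Kcnab2 at 2.03 and 1.96 CPM. Kcnab1 was also above Kcnab3 with BMP4 11 h (4.13 against 3.53 CPM) and with BMP4 and FGF4 (5.49 against 0.587 CPM). The alpha subunit gene Kcna6 was at 2.39 CPM at 0 h and 2.05 at 96 h. Kcna1 was called higher than at 96 h (0.239 CPM) with BMP4 11 h (1.35 CPM) and with BMP4 and FGF4 (1.17 CPM), a direction that Kcnab3 shared with BMP4 11 h.

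Of 12 ADAMTS-like and microfibril genes tested besides Adamtsl2, 3 were called higher at 96 h and none lower, where 3.85% of all genes were called higher, and the median was 0.28. Fbn1, which encodes the microfibril protein fibrillin, was at 11.3 CPM at 0 h and 26.6 at 96 h, the elastin microfibril gene Emilin1 at 24.8 and 54.1, and Adamtsl1 at 0.412 and 3.16 CPM. Fbn2, the second fibrillin gene, was at 222.0 and 175.0 CPM, and Papln was called higher with BMP4 11 h (1.28 CPM) than with BMP4 5 h (0.294 CPM). With BMP4 and FGF4 11 h Fbn1 reached 44.5 CPM against 19.3 with BMP4 11 h, and was called higher where 1.17% of all genes were, while Adamtsl2 was called lower. Fbn1 and Emilin1 are also made by fibroblasts, whose marker sum without Fn1 was 159.3 CPM at 0 h, 824.4 at 96 h and 1203 with BMP4 and FGF4. The part of fibroblasts in the levels of these genes was not tested.

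None of the 8 ARL4 and partner genes tested besides Arl4d was called in any of the 9 comparisons, and their median for 96 h over 0 h was 0.03. Its closest relatives were at like levels, Arl4a at 13.7 and 12.7 CPM and Arl4c at 25.9 and 30.5 CPM at 0 h and 96 h. The apelin system also kept its other parts. The receptor gene Aplnr was at 13.2 CPM at 0 h, 17.8 at 96 h, 11.5 with BMP4 5 h, 11.2 with BMP4 and FGF8, 13.5 with BMP4 11 h and 24.2 with BMP4 and FGF4, and the second ligand gene Apln stayed between 3.84 and 4.40 CPM. Aplnr was highest with BMP4 and FGF4, where Apela was near its 96 h level, and it was called higher in BMP4 with FGF4 11 h than in BMP4 with FGF8 5 h (log2 ratio 1.07). Aplnr is also expressed by endothelial cells, and endothelial markers summed to 136 and 9.43 CPM in those libraries. They summed to 43.3 CPM with BMP4 11 h and 9.05 with BMP4 5 h, where Aplnr was at 13.5 and 11.5 CPM. The part of endothelial cells in the Aplnr levels was not tested. Of 12 aldehyde dehydrogenase genes besides Aldh1b1 none was called at 96 h over 0 h (median 0.01). Aldh1a2, which makes retinoic acid in the trunk mesoderm, was at 59.9 and 64.7 CPM and the mitochondrial Aldh2 at 30.1 and 34.9 CPM, and 1 gene, Aldh1l2, was called higher with BMP4 and FGF4 than at 96 h, at 3.33 against 1.25 CPM.

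**Figure D4:**
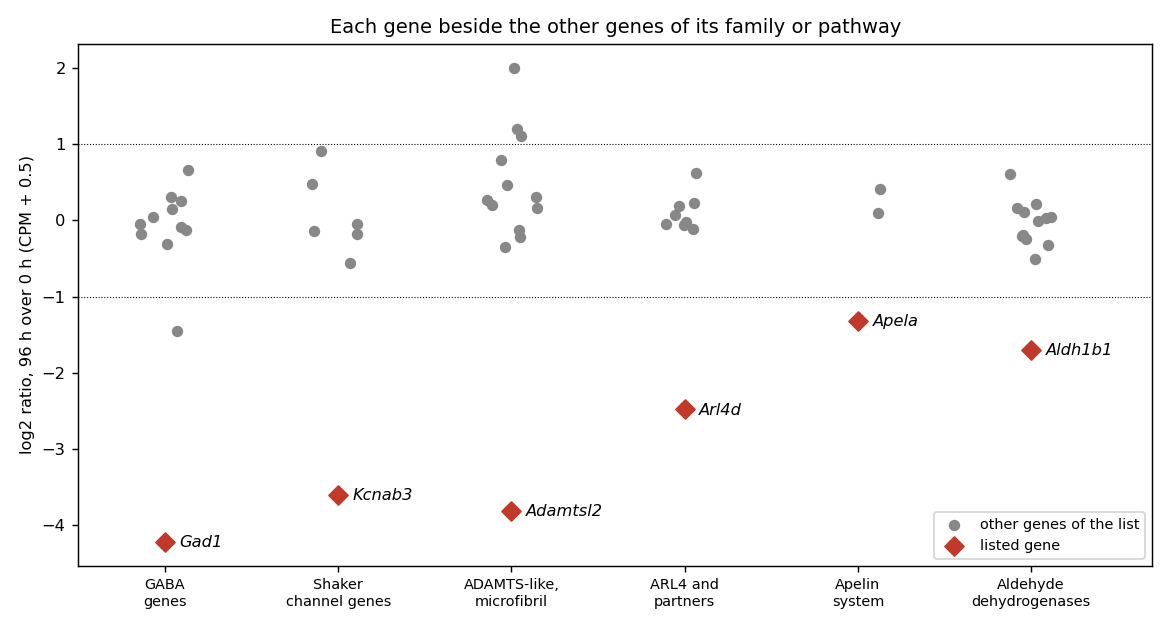
Log2 ratio of 96 h over 0 h (vertical axis, CPM plus 0.5) for each of the 6 genes (red diamonds) and the other tested genes of its family or pathway (grey points, spread sideways for clarity), with 1 library per condition. Besides the 6 genes, which were chosen for low ratios, 1 gene (Gabrb2) lies below the lower dotted line at 2-fold and 3 microfibril genes lie above the upper line.

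The pattern of each gene over the 6 libraries was compared with that of all 10806 genes of at least 5 CPM in at least 1 library, by the root-mean-square difference of mean-centred log2 levels (0 for the same pattern). For Gad1 the nearest were Hes7 (0.172), the segmentation clock repressor, then Cyp26a1 (0.323), which degrades retinoic acid, Hoxd11 (0.330), Tbx6 (0.360) and Dll3 (0.371). For Adamtsl2 they were Dll3 (0.143), Hes7 (0.146), 1300002K09Rik (0.163), T (0.172) and Hoxd11 (0.173). For Kcnab3 they were Hoxd11 (0.196), Cyp26a1 (0.217), Hoxd12 (0.230), Hoxc10 (0.234) and Nkx1-2 (0.240). The measure includes the 0 h and 96 h levels by which the genes were chosen, so near patterns are those of other genes low at 96 h.

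Arl4d lay nearest to Wnt3a (0.0628), the WNT ligand of the tailbud, then Epha1 (0.104), 2610035F20Rik (0.110), the FGF feedback inhibitor gene Spry4 (0.117) and Cldn9 (0.126). Wnt3a was at 14.8 CPM at 0 h, 2.45 at 96 h, 14.7 in both 5 h libraries, 6.16 with BMP4 11 h and 2.95 with BMP4 and FGF4, so its steps were close to those of Arl4d throughout. Apela lay nearest to Cpne2 (0.0382), Sema4g (0.0515), the planar polarity receptor gene Ptk7 (0.0597), Nrxn2 (0.0693) and 2610528A11Rik (0.0710). Aldh1b1 lay nearest to Cd83 (0.0859), Cpn1 (0.145), Gbx2 (0.195) and 6330419J24Rik (0.205). Small differences are easier to reach for genes that change little, such as Apela. Among the 6 genes themselves the closest pairs were Gad1 with Adamtsl2 (0.241) and Arl4d with Aldh1b1 (0.288), and the farthest was Gad1 with Apela (1.21).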

How the data were processed

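The authors deposited raw read counts per gene, not normalized, in 6 columns, 1 library per condition. Per the submitters' processing notes, DESeq, HTSeq, STAR 2.4.0e, cutadapt and mm10 were used, with no roles named, and how reads were counted is not stated there. The kit keeps strand, per the labels' protocols. Of the values from 1 to 20, 65.4% to 70.9% were even, and if both mates were counted, intervals are too narrow.

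The growth factor columns were out of register with the names (r 0.0481 to 0.136 row by row). Names were sorted without regard to case and each column was aligned in order, by a pair hidden Markov model, to the range of the untreated columns (r 0.963 to 0.991 afterwards). This favours values within that range, so r is no independent check. Names were kept at a probability of at least 0.95 in all 4 columns with no row within 3 positions pointing to an exchange, settings chosen after the data were seen. The 16958 genes kept held 98.3% to 98.4% of the counts. The 6 genes got the same rows from their neighbours' offsets, ignoring their own values, and from pairing the columns of equal time directly. The neighbours were themselves placed by the same alignment, at a probability of at least 0.99. For Gad1 at BMP4 11 h the nearest such name on the left, Gabrg3, was 6 names away, so this check is weaker there. The method was tested on simulated data.

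Counts were scaled by TMM (edgeR 4.0.16, R 4.3.3) to CPM over the kept genes. A gene was tested where any library reached 1 CPM, which 13959 genes did, all 6 genes among them. Ratios used log2(CPM + 0.5), which understates changes of low genes, and carry exact Clopper-Pearson 95% intervals; levels carry exact Poisson intervals. DESeq2 1.42.0 size factors, other filters, 2 CPM added and other placements were alternatives. The genes, lists and motifs were chosen with earlier results of these data known. Named genes are the 6, members of their lists that were called or highly expressed, close relatives and partners chosen after their values were seen (such as Gad2 and Kcna6), single markers chosen likewise, and the 5 nearest patterns of each, of which 1 is not reported here.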

Additional observations from a re-analysis of the deposited data

Results flagged for a closer look

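Some effects ran in opposite directions in 2 settings. With 1 library per condition these differences were not tested. Kcnab3 was slightly higher with FGF8 added to BMP4 at 5 h (log2 ratio 0.19) and much lower with FGF4 added at 11 h (-1.89). Apela had 0.12 and -0.57 in the same comparisons. Aldh1b1, over 96 h, had 1.70 with BMP4 and FGF8 5 h and 0.21 with BMP4 11 h, but -0.31 with BMP4 and FGF4 11 h.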

How the results depend on the processing

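Of 54 log2 ratios (6 genes in 9 comparisons) recomputed under 8 alternatives, 426 of 432 values kept their side of 2-fold, and 2 changed sign. These were Gad1 below and Apela in BMP4 with FGF4 over 96 h, from -0.03 to 0.03 with total-count scaling. The filters set only which genes were tested and could not change a ratio, so their values among the 432 are no check. Neighbours' offsets gave the same rows and so the same ratios. With 2 CPM added in place of 0.5, no gene was called higher with BMP4 and FGF4 over 96 h (0 in place of 1, Gad1 at 0.43), and Apela with BMP4 5 h (0.91) and Arl4d with BMP4 11 h (0.91) were no longer 2-fold over 96 h. With placement on the 96 h column alone, Gad1 at BMP4 11 h fell on a row of 82 counts at a probability of 0.678, below the 0.95 required; its ratio for BMP4 with FGF4 over BMP4 then reversed to 0.65, its ratio over 96 h was 0.37, and its ratio over BMP4 5 h was -3.84, now past 2-fold. DESeq2 size factors, total-count scaling (largest shift 0.14), placement on the 0 h column and neighbours' offsets changed none of these calls, and the filters could not. No paired analysis was possible because each condition has 1 library, so leaving out a replicate was not possible either.

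The share of all genes called varied with these choices. With 2 CPM added it was 1.35% for 96 h lower than 0 h, 1.35% and 1.38% for the 5 h libraries higher than 96 h, 1.18% and 0.458% for the 11 h libraries, 0.129% for BMP4 11 h lower than 5 h, 1.02% for the FGF libraries and 0.358% for FGF4 lower than BMP4 alone. The lowest levels rest on the fewest counts (73 for Gad1 at 96 h) and are the least precise.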
